A study of Mus musculus with 6 samples.

Results

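The replication-dependent histone genes are the clustered genes that encode the linker histone H1 and the core histones H2A, H2B, H3 and H4. They were taken as every gene of the deposited table whose GENCODE M21 symbol starts with Hist1h, Hist2h, Hist3h or Hist4h, which gave 66 of 24080 genes. By symbol, 54 of these belong to the Hist1 cluster on chromosome 13, 8 to the Hist2 cluster on chromosome 3, 3 to the Hist3 cluster on chromosome 11 and 1 to Hist4 on chromosome 6. *Hist1h2al*, at 51202727 of chromosome 13, carries a Hist1 symbol but lies apart from the other Hist1 genes. By class there were 6 H1, 19 H2A, 17 H2B, 11 H3 and 13 H4 genes, and 3 of the 66 are annotated as pseudogenes. Members entered the test when 3 or more libraries held a normalized count of 10 or above (gene counts divided by the size factor of the library), which 62 did. The other 4 (*Hist1h1t*, *Hist1h2aa*, *Hist3h2ba* and *Hist3h2bb-ps*) stayed under this filter. The annotation holds 70 genes that fit the rule, and the other 4 were not analysed here.

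Core histones form the protein spool around which DNA is wound, with H3 and H4 at its centre and H2A and H2B paired on either side, and H1 binds the linker DNA between spools. A cell that copies its genome must also supply histones for the new DNA, so these genes are expressed mainly in S phase and shut off when replication ends. Their mRNAs are unusual in that most carry no poly(A) tail: they end in a short stem-loop, bound by the stem-loop binding protein, which governs their processing, export and decay.

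RNA came from VEC-positive and VEC-null mouse endothelial cells (ECs), with 3 libraries of each. VEC-null ECs were derived from murine embryonic stem cells with both copies of the *VEC* gene (*Cdh5*, vascular endothelial cadherin) mutated to null. VEC-positive ECs are the same line after retrovirus-mediated transfer of wild-type *VEC*, so both groups share the null alleles and the comparison rests on 1 line and its reconstituted derivative. A stranded kit for total RNA was used, which does not depend on a poly(A) tail, and the study calls the replicates biological. The p-values given here measure the spread between these libraries and do not separate VEC from other differences between the lines.

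Recovered reads were 6036155 to 14136376 per library. *Cdh5* ran against the labels, with normalized counts of 794, 739 and 749.7 in the libraries labelled VEC-positive and 1334, 1439 and 1689 in those labelled VEC-null, so all directions are given by label. *Cldn5* (claudin-5), a gene known to be induced by VEC in endothelial cells, had 429, 512 and 434 in libraries labelled VEC-positive, against 9.18, 5.51 and 4.43 in those labelled VEC-null (log2 fold change 6.01, adjusted p = 2.14e-06). VEC-null library 3 stood apart, since its counts differed from those of the other VEC-null libraries by a chi-square of 49.6 and 50.2 per gene, against 11.8 to 17.9 among VEC-positive libraries and 6.59 between VEC-null libraries 1 and 2. Mitochondrial transcripts took up to 24.2% of reads in VEC-positive and up to 14.9% in VEC-null libraries. Of 10 endothelial markers, 7 were higher, 1 (*Cdh5*) was lower and 2 did not pass. Mural and fibroblast markers summed to 237 to 279 in VEC-positive and 170.2 to 245 in VEC-null libraries, with 1 of 4 tested members higher (*Pdgfrb*), 1 lower (*Abcc9*) and 2 not passed, and *Kcnj8* listed at 0 in the VEC-positive libraries. The blood cell markers had 1 tested gene (*Itgam*), which did not pass, and they summed to 99.4 to 155 in VEC-positive and 83.3 to 407 in VEC-null libraries. None of 3 pluripotent and 4 epithelial markers reached the filter. Their part in the histone values was not tested.

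The stem-loop is the sequence that sets these mRNAs apart, so 4 of the 6 forms found in the annotated transcripts are shown here, the 3 with the most carriers and a further H4 form. The search was for a stem of 6 bases starting with GG, a loop of 4 bases starting with TTT, and the reverse complement of the stem. It was found in 40 of 66 members, and in 61.3% of tested members against 0.151% of the other tested genes. The loop is in capitals, and the name is that of the carrier with the largest mean count.
*Hist2h2aa2*: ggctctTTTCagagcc
*Hist1h2bk*: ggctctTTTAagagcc
*Hist1h4f*: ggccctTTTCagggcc
*Hist1h4b*: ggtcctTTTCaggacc
The first form was shared by 22 genes of the H1, H2A, H2B and H3 classes, of which 15 of 21 tested were lower in VEC-positive libraries. The second was found in 6 genes of H1, H2B and H3 (5 of 5 tested lower). The next 2 belonged to H4 genes, 7 with the *Hist1h4f* form (3 of 7 lower) and 2 with the *Hist1h4b* form (2 of 2 lower). The 2 forms not shown, which differ from these in the loop, were found in 2 H4 genes (1 of 2 lower) and in *Hist2h2ac* (lower). For scale, 16.4% of all 14032 tested genes were lower, and differences between the forms were not tested. By class, the search found the loop in 4 of 6 H1, 10 of 19 H2A, 8 of 17 H2B, 7 of 11 H3 and 11 of 13 H4 genes. A member without a match has none of these letters in its annotated transcripts, several of which are short, and nothing follows from it about the mRNA.

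Histone mRNA was lower in the libraries labelled VEC-positive than in those labelled VEC-null, in every class and across most single genes. Of the 62 tested members, 42 were lower, none was higher and 20 did not pass, at an adjusted p of 0.05 in limma over all 14032 tested genes. The background was 16.4% of tested genes lower and 20.9% higher. The median log2 fold change of the members was -1.03, a 2.04-fold lower level, against -0.01 over all tested genes. Of the 42 that passed as lower, 30 were at least 2-fold lower, against 981 of all 14032 tested genes by the same rule. By sign alone, 59 of 62 were below zero, against 7163 of 14032 tested genes. Every VEC-positive library lay below every VEC-null library for 42 members (background 22.8%) and above for 2 members (background 27.2%). With edgeR and DESeq2 on recovered reads the count of higher members was also 0, and 2 members were higher at an unadjusted p under 0.05.

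**Figure D1:**
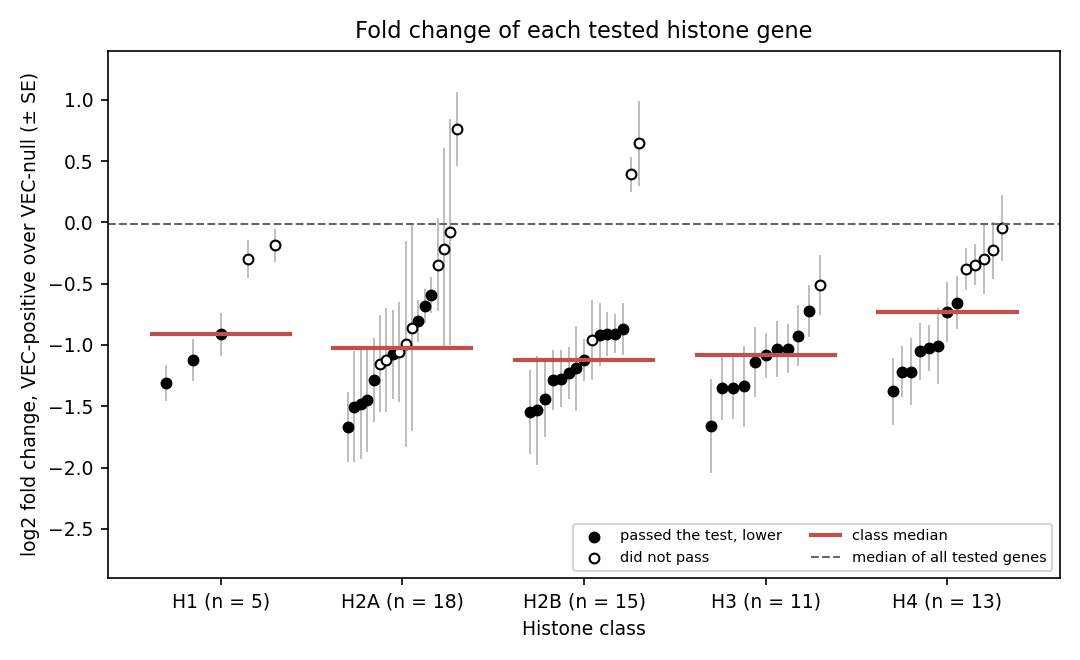
Log2 fold change between VEC-positive and VEC-null libraries (y axis, with standard error, positive where VEC-positive is higher) for each of the 62 tested histone genes, grouped by class on the x axis. Filled points passed the test and open points did not, the red bar is the class median and the dashed line is the median of all tested genes. All 5 class medians lie between -0.73 and -1.12, and 3 open points lie above the line.

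The count of lower members depended on the libraries kept. It was 26 without VEC-positive library 1, 29 without VEC-null library 1 and 43 without VEC-null library 3. The share of all tested genes that were lower moved with it, to 11.3%, 13.6% and 23.9% in the same fits. In all 6 fits that leave out a library, 25 members were lower. With libraries scaled to equal totals, the median of all tested genes moved to -0.32, the background to 35.3% lower and 11.2% higher, and 51 members were lower and none higher. In RNA from whole cultures, fewer cells in S phase and less histone mRNA per cell cannot be told apart, and no measure of cell cycle phase was analysed here.

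Because copies within a class are near-identical, the reads of 1 gene cannot always be told from those of another, and sums over a class depend less on how reads are divided among its members. They still depend on reads counted more than once and on stretches shared outside the class, such as the 23.8% of 50-base stretches that *Hist1h1e* shares with *Hist1h2be*. The 66 members together had normalized counts of 13350.3, 13096 and 16811 in the VEC-positive libraries, against 33739.7, 21274 and 29394 in the VEC-null libraries. The means were 14419 ± 2076 and 28136 ± 6327 (SD, n = 3 each), a ratio of 0.512, and the groups did not overlap. As a share of reads that were not mitochondrial, this was 0.145% to 0.190% in VEC-positive and 0.262% to 0.404% in VEC-null libraries.

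Each class showed a sum near this ratio. H1 genes summed to 3133 ± 414 in VEC-positive and 5403 ± 1115 in VEC-null libraries (ratio 0.580), and H2A genes to 7769 ± 2211 in VEC-positive and 15789 ± 5512 in VEC-null libraries (ratio 0.492). H2B genes summed to 1660.0 ± 182 in VEC-positive and 3337 ± 793 in VEC-null libraries (0.497), and H3 genes to 762 ± 134 in VEC-positive and 1598 ± 385 in VEC-null libraries (0.477). H4 genes summed to 1096 ± 147 in VEC-positive and 2009 ± 465 in VEC-null libraries (0.546). The VEC-positive libraries were all below the VEC-null libraries for H1, H2B, H3 and H4. H2A was the exception, since VEC-positive library 3 (10068) was above VEC-null library 2 (9452). VEC-null library 1 had the largest sum for H1, H2B, H3 and H4, and VEC-null library 3 the smallest of the VEC-null group for the same classes.

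**Figure D2:**
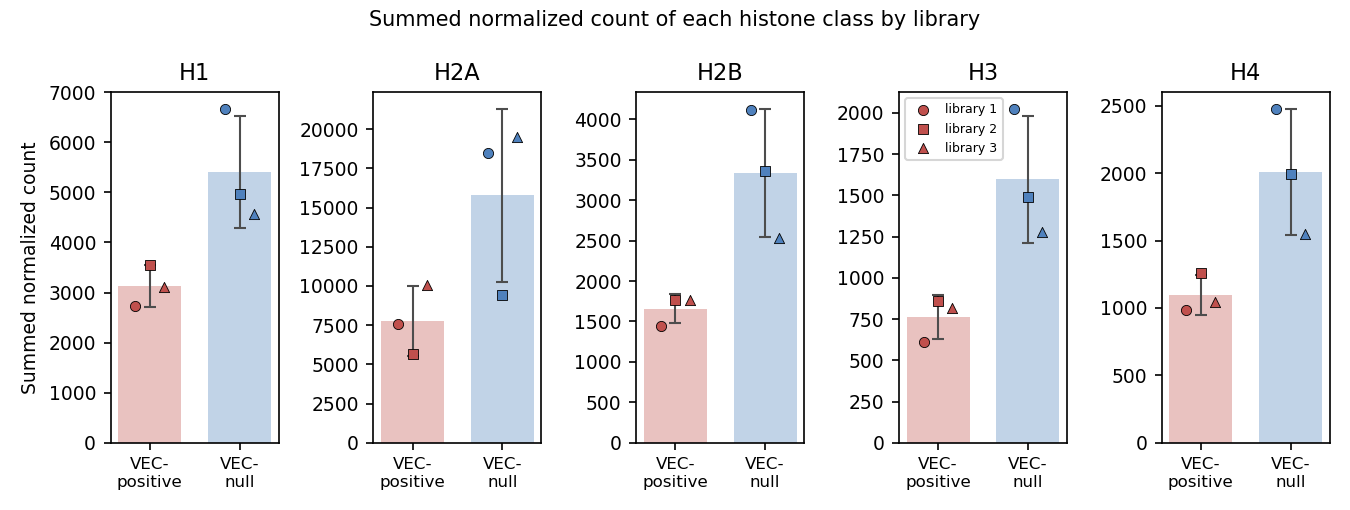
Summed normalized count of each histone class (y axes, 1 panel a class) in VEC-positive and VEC-null libraries, with the mean as a bar, the SD as an error bar and each library as a point whose shape gives its number. The groups are apart for H1, H2B, H3 and H4 and overlap for H2A, where VEC-null library 2 is at 9452.

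The linker histone genes divided into 3 that were lower and 2 that did not pass, with a class median of -0.91, and the 3 were lower under every alternative tried. *Hist1h1b* (chromosome 13 from 21779883 to 21780625 of mm10) had normalized counts of 201, 229.9 and 228 in VEC-positive libraries, against 632, 587 and 434 in VEC-null libraries. Its log2 fold change was -1.31 (standard error 0.15, adjusted p = 0.000315). *Hist1h1d* had 497, 677 and 599 in VEC-positive libraries, against 1628, 1184 and 1086 in VEC-null libraries (-1.12 ± 0.17 SE, adjusted p = 0.00132). For both, the groups were well apart. *Hist1h1e* had 892, 1281 and 978 in VEC-positive libraries, against 2453, 1808 and 1689.9 in VEC-null libraries (-0.91 ± 0.17 SE, adjusted p = 0.00418). Its annotation overlaps that of *Hist1h2be* over 496 bases of the same strand, so reads there cannot be given to either gene.

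*Hist1h1c*, a linker histone gene known in human cells to give polyadenylated transcripts as well, had 990.2, 1229 and 1181 in VEC-positive libraries, against 1770.3, 1239 and 1218 in VEC-null libraries. The groups overlapped, VEC-null library 1 alone being high, and the log2 fold change was -0.30 (SE 0.16, adjusted p = 0.172). *Hist1h1a* had 146, 137 and 132 in VEC-positive libraries, against 184, 153 and 140.1 in VEC-null libraries (-0.19 ± 0.14 SE, adjusted p = 0.319). Neither passed, although H1 genes share few bases with each other: 0% to 8.54% of the 50-base stretches of *Hist1h1a*, *Hist1h1b*, *Hist1h1c* and *Hist1h1d* occur in another gene. The testis-specific *Hist1h1t* had 1 read in the VEC-positive libraries and 3 in the VEC-null libraries.

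H2A genes showed the same direction with the least precision. Of 18 tested, 9 were lower and 9 did not pass, with a median of -1.03, and 17 were below zero. The count was 4 without VEC-null library 1, without VEC-positive library 1 or without VEC-positive library 2, and 13 without VEC-null library 2, and it was also 4 in limma without the trend or with robust variances. The share of all tested genes that were lower was 16.4% in the main fit and 11.3% to 13.6% in the 4 fits without a library. It was 14.8% without the trend and 16.2% with robust variances, so a count of 4 of 18 is not far above it. The SD of log2 values within a group had a median of 0.66 over H2A genes, against 0.25 to 0.37 in the other classes and 0.19 over all tested genes. *Hist2h2aa2* (chromosome 3 from 96239749 to 96240276) had 1384, 1619 and 1499 in VEC-positive libraries, against 2993, 2127 and 2188 in VEC-null libraries (-0.68 ± 0.14 SE, adjusted p = 0.00533). All its 50-base stretches also occur in other annotated genes. *Hist1h2ak* had the lowest fold change of the class, with 159.8, 99.4 and 165 in VEC-positive libraries, against 649, 421 and 313 in VEC-null libraries (-1.67 ± 0.29 SE, adjusted p = 0.00261). *Hist2h2aa2*, *Hist1h2ak* and *Hist1h2al* were the H2A genes that were lower under every alternative tried. *Hist1h2al* is annotated as a processed pseudogene and shares 65.5% of its 50-base stretches with *Hist2h2aa2*, so the calls of these genes may rest on the same reads.

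The scatter was widest in 4 copies, though it was not limited to them. The SD of log2 values within a group was also 0.76 for *Hist1h2ac* and 0.77 for *Hist1h2ag*. *Hist1h2ab* had 232, 191 and 638 in VEC-positive libraries, against 791, 136 and 1575 in VEC-null libraries. *Hist1h2ad* had 243, 245 and 696 in VEC-positive libraries, against 295, 96.9 and 1692 in VEC-null libraries. *Hist1h2ai* and *Hist1h2ao* behaved likewise, VEC-null library 2 being the lowest of its group for all 4 and VEC-null library 3 the highest. Their log2 fold changes lay between -0.08 and -0.99 with standard errors of 0.83 to 0.92, and those of *Hist1h2ad* and *Hist1h2ai* turned positive under 3 of 18 alternatives each. *Hist1h2ao* shares 93.5% of its 50-base stretches with *Hist1h2ap*, which had 394, 191 and 531 in VEC-positive libraries, against 1446, 565 and 1003 in VEC-null libraries (-1.45 ± 0.42 SE, adjusted p = 0.0285).

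Other copies were nearly equal to each other. *Hist1h2ac*, *Hist1h2ag* and *Hist1h2ap* had 328, 329 and 338 reads in VEC-positive library 1, and 941, 958 and 945 reads in VEC-null library 1. In VEC-null library 2 they had 699, 708 and 717 reads. The 3 lie at separate places of the Hist1 cluster, and how the authors counted reads that fit several copies was not found in the paper or labels, so their calls may rest on the same reads. All 3 lost their call without VEC-null library 1 (adjusted p of 0.0987, 0.0969 and 0.0871), without VEC-positive library 1 (0.0722, 0.0711 and 0.0664) and without VEC-positive library 2 (0.0875, 0.0853 and 0.0806).

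**Figure D3:**
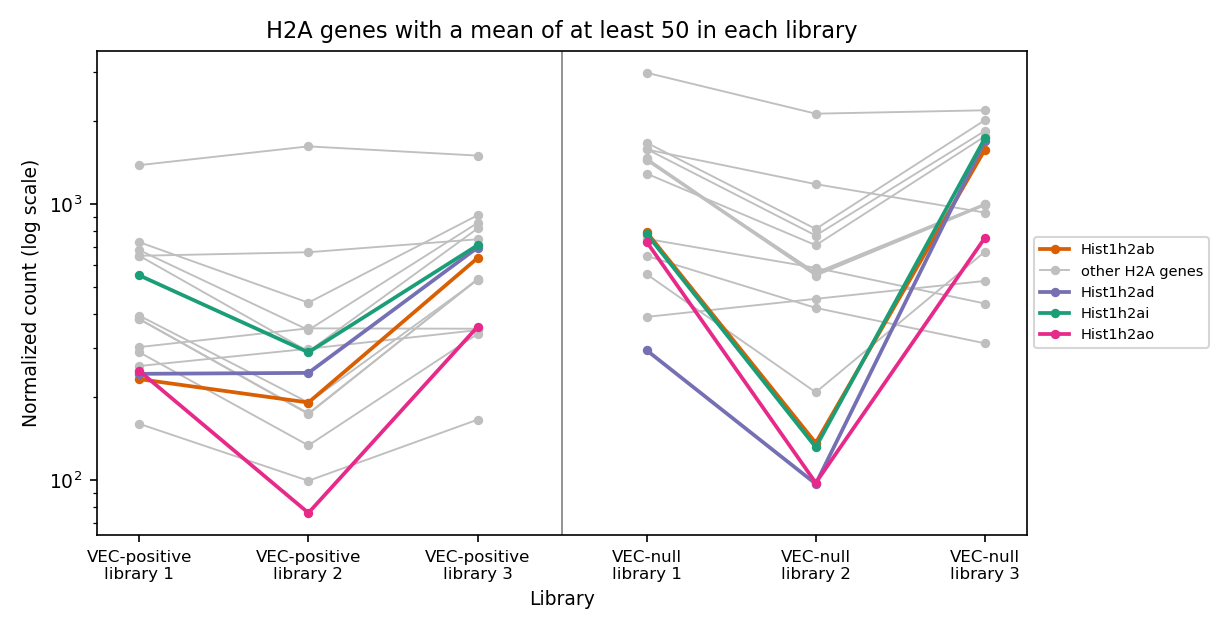
Normalized count (log axis) of the H2A genes with a mean of at least 50, in each VEC-positive and VEC-null library. Lines join the values of 1 gene within a group and carry no order. The 4 coloured genes, *Hist1h2ab*, *Hist1h2ad*, *Hist1h2ai* and *Hist1h2ao*, drop to between 96.9 and 136 in VEC-null library 2.

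Members with much and with little shared sequence had close medians. Of 30 tested members with at most 50% of their 50-base stretches in another gene, 19 were lower (median -1.03), and of 32 with a larger share, 23 were lower (median -1.02). The share is taken over whole annotated transcripts, so a long transcript lowers it. *Hist1h2ac*, at 14.1% over 2482 bases, is among the 30, though its reads nearly equal those of *Hist1h2ag* and *Hist1h2ap*. The split therefore cannot show whether shared reads affect the medians. Across the 62 tested members, the share of common stretches and the SD within groups had a Spearman rho of 0.26, given as a description since copies share reads. Leaving out the whole H2A class, 33 of 44 tested members were lower, with a median of -1.03.

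H2B genes were lower in 12 of 15 tested, with a median of -1.12, and the count was 8 without VEC-positive library 1 and 13 without VEC-null library 3. *Hist1h2bq* had 232, 257 and 258 in VEC-positive libraries, against 777, 631 and 408 in VEC-null libraries (-1.23 ± 0.21 SE, adjusted p = 0.00263). *Hist1h2bf* had 98.0, 95.5 and 115 in VEC-positive libraries, against 448, 378 and 160.5 in VEC-null libraries (-1.55 ± 0.34 SE, adjusted p = 0.00907). *Hist1h2bl* had 109.6, 107 and 129.9 in VEC-positive libraries, against 448, 382 and 183 in VEC-null libraries (-1.44 ± 0.30 SE, adjusted p = 0.00702). In all 3 the VEC-positive libraries were tightly grouped and VEC-null library 3 was the lowest of its group. *Hist1h2be*, which overlaps *Hist1h1e*, had 133, 106 and 162 in VEC-positive libraries, against 409, 365 and 225 in VEC-null libraries (-1.29 ± 0.24 SE, adjusted p = 0.00416).

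*Hist1h2ba*, which encodes a testis-specific H2B in mouse, had 49.0, 45.8 and 55.7 in VEC-positive libraries, against 240.2, 205 and 63.8 in VEC-null libraries. The groups did not overlap, although VEC-null library 3 was close to the VEC-positive libraries. Its log2 fold change was -1.53 (SE 0.45, adjusted p = 0.0285), it lost the call in 5 of the 6 fits that leave out a library (adjusted p of 0.0664 to 0.101), and 38.2% of its 50-base stretches occur in another gene. *Hist3h2bb-ps*, a pseudogene under the filter, had 0 reads in the VEC-positive libraries and 5, 16 and 4 reads in the VEC-null libraries, which made it at least 8.53-fold lower against a floor of 3 reads over the group.

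The exceptions to the direction were 2 H2B genes and 1 H2A gene. *Hist1h2bc* (chromosome 13 from 23684199 to 23692908) had 306, 428 and 362 in VEC-positive libraries, against 299.9, 243 and 287 in VEC-null libraries. Of its 50-base stretches, 30.1% occur in other genes, which number 100 and include 12 members. The groups just failed to overlap, and the log2 fold change was 0.39 (SE 0.14, adjusted p = 0.0655). It passed as higher without VEC-null library 3 (0.42, adjusted p = 0.0428) and without VEC-positive library 1 (0.51, adjusted p = 0.0402). *Hist2h2be* (chromosome 3 from 96221119 to 96223738) had 18, 25 and 22 reads in VEC-positive libraries, against 13, 13 and 12 reads in VEC-null libraries, which after scaling gave a log2 fold change of 0.65 (SE 0.35, adjusted p = 0.183). None of its 50-base stretches occurs in another gene, and its groups overlapped after scaling, VEC-null library 1 being at 19.9 and VEC-positive library 3 at 17.8. Both genes are known in human cells to give polyadenylated transcripts, and in neither was the stem-loop found in the annotated transcripts. Members with and without it had close medians, however. Of tested members without it, 15 of 24 were lower (median -1.05), and of those with it, 27 of 38 (median -1.02). It was also found in *Hist3h2a*, the H2A gene among the exceptions. *Hist3h2a* had 32.7, 45.8 and 28.2 in VEC-positive libraries, against 15.3, 26.0 and 20.4 in VEC-null libraries (0.76 ± 0.30 SE, adjusted p = 0.0812). It lies within *Trim17* on the same strand and shares 31.5% of its 50-base stretches with that gene. *Trim17* itself had under 3 normalized counts in each library. *Hist3h2ba* of the same cluster had 9 reads in the VEC-positive and 5 reads in the VEC-null libraries.

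The annotated ends of transcripts were set beside the calls, a split made after the values were seen. A polyadenylation signal (AATAAA or ATTAAA, sense strand) stands in the last 50 bases of the longest annotated transcript of 13 tested members, of which 6 were lower, with a median of -0.66. Of the other 49 tested members, 36 were lower, with a median of -1.08. Likewise, 9 of 16 members with a transcript of at least 1000 bases were lower (median -0.82), and 33 of 46 with shorter ones (median -1.07). *Hist1h2bc* was among the 49 without a signal, and *Hist2h2be* and *Hist3h2a* were among the 13 with one. The difference between these groups of genes was not tested.

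*Hist1h2bc* and *Hist2h2be* also stand out by position, because H2A and H2B genes are often arranged head to head and share the stretch between their start sites. There were 13 such pairs, 172 to 305 bases apart, and both genes were tested in 11. Both were below zero in 9 pairs and both passed as lower in 5. The other 2 pairs had opposite signs, with *Hist1h2ac* at -1.49 and *Hist2h2ac* at -1.29, both lower, beside *Hist1h2bc* at 0.39 and *Hist2h2be* at 0.65, which did not pass. The reads of *Hist1h2ac* nearly equal those of *Hist1h2ag* and *Hist1h2ap*, so its value may not come from this place alone. Its call was lost under 5 of 18 alternatives. *Hist2h2ac* had 290.4, 133 and 338 in VEC-positive libraries, against 748, 587 and 436 in VEC-null libraries (SE 0.34, adjusted p = 0.0198), and its call was lost without VEC-null library 1 (0.0651) and without VEC-null library 2 (0.0594). Calls in the 5 pairs with both genes lower were also lost in part. That of *Hist1h2ah* was lost under 8 of 18 alternatives, those of *Hist1h2ag* and *Hist1h2ap* under 5 each and that of *Hist1h2an* under 2. Among the H2B genes, *Hist1h2bn* lost its call under 5 of 17 and *Hist1h2bj* under 3 of 18. As single genes, 16.4% of all tested genes were lower. The difference between the partners of a pair was not tested.

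**Figure D4:**
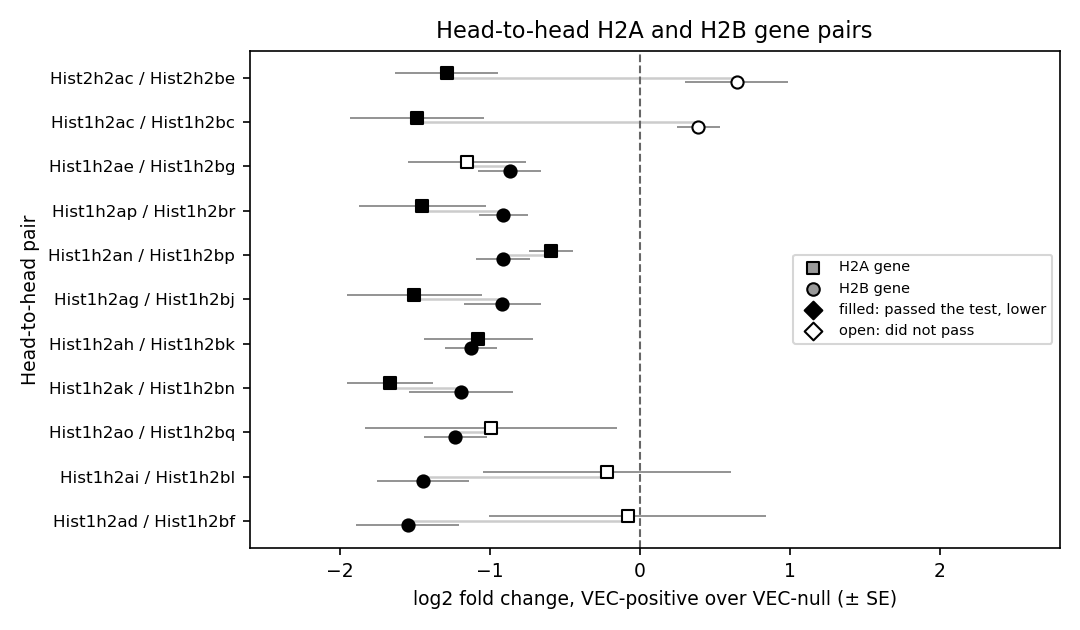
Log2 fold change between VEC-positive and VEC-null libraries (x axis, with standard error, positive where VEC-positive is higher) of the H2A gene (squares) and the H2B gene (circles) of the 11 head-to-head pairs in which both were tested. Filled symbols passed as lower and open symbols did not pass. In the top 2 pairs the H2A gene is at -1.29 and -1.49 and the H2B gene at 0.65 and 0.39.

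The stretches between the start sites of the 2 pairs with opposite signs, and of a pair in which both genes were lower (*Hist1h2ah* at -1.08 and *Hist1h2bk* at -1.12), are shown to compare their elements. The call of *Hist1h2ah* was close to the threshold (adjusted p = 0.0493), its groups overlapped, and the call was lost under 8 of 18 alternatives. Of its 50-base stretches, 90.7% occur in other genes. They come from RefSeq promoter entries on GRCm38.p6 and are limited to the bases between the start sites of both GENCODE and RefSeq. Capitals mark the CCAAT box (CCAAT or ATTGG), the TATAAA box, and the octamer ATTTGCAT or its reverse complement ATGCAAAT, searched on both strands. The motifs do not overlap in these stretches.
*Hist1h2ac* / *Hist1h2bc*, chr13:23683960-23684198, minus strand: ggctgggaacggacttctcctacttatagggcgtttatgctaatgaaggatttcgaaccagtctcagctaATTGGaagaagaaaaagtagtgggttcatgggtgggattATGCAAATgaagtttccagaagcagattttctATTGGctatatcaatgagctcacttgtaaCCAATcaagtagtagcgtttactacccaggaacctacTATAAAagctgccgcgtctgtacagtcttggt
*Hist2h2ac* / *Hist2h2be*, chr3:96220881-96221071, minus strand: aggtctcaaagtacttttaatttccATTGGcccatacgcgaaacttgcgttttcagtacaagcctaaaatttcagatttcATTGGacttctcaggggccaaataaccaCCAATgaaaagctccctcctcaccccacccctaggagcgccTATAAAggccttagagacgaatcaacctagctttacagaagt
*Hist1h2ah* / *Hist1h2bk*, chr13:22035644-22035820, plus strand: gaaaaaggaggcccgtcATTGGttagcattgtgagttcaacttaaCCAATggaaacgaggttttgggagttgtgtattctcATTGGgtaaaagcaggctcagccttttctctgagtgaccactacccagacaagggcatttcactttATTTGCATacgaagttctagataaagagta
Each stretch held 3 CCAAT boxes, on both strands. The octamer was found in the first and the last stretch, and TATAAA in the first 2, on the side of the H2A gene. The last stretch covers 177 of the 301 bases between the GENCODE start sites and leaves out bases next to both genes. The RefSeq promoter entry of its H2A gene, *Hist1h2ah*, holds TATAAA, so the stretches do not show a difference in this element.

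Over the 57 members with a RefSeq promoter entry of 300 bases (250 before and 50 after the start), CCAAT was found on either strand in 84.2%, against 37.9% of all 27025 promoters. TATAAA on the gene's strand was found in 49.1% against 8.88%, and the octamer in 21.1% against 1.75%. All entries of H1, H2A, H2B and H3 held CCAAT, but 3 of 12 of H4 did. The octamer was found in 7 of 17 H2A and 5 of 14 H2B entries and in no entry of H1, H3 or H4. A match to these letters is a description and not a site.

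H3 genes were lower in 10 of 11 tested, with a median of -1.09, and all 11 were below zero. The count was 6 without VEC-positive library 1, 7 without VEC-positive library 3, and 8 without VEC-null library 1 or 2. *Hist1h3a* had the largest change, with 30.3, 31.2 and 42.0 in VEC-positive libraries, against 177, 129.9 and 57.6 in VEC-null libraries (-1.66 ± 0.39 SE, adjusted p = 0.0113). *Hist1h3i* had 74.6, 73.1 and 93.6 in VEC-positive libraries, against 297, 206 and 143 in VEC-null libraries (-1.35 ± 0.26 SE, adjusted p = 0.00418), and *Hist1h3e* was close to it (-1.35 ± 0.25 SE, adjusted p = 0.00375). The H3 genes of the Hist2 cluster had the fold changes nearest to zero in the class, a difference from the Hist1 genes that was not tested. *Hist2h3c2* had 149, 234 and 215 in VEC-positive libraries, against 395, 340.2 and 253 in VEC-null libraries (-0.72 ± 0.21 SE, adjusted p = 0.0291), a call lost in 4 of the 6 fits that leave out a library. *Hist2h3b*, the member that did not pass, had 68.8, 136 and 109 in VEC-positive libraries, against 158, 125 and 152 in VEC-null libraries (-0.51 ± 0.25 SE, adjusted p = 0.139).

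H4 genes, which encode an identical protein, were lower in 8 of 13 tested, with the smallest class median, -0.73, and all 13 were below zero. The count was 8 without VEC-null library 3 and 5 without any other library. *Hist1h4f* had 74.6, 86.7 and 82.3 in VEC-positive libraries, against 306, 234 and 134 in VEC-null libraries (-1.38 ± 0.28 SE, adjusted p = 0.00544). *Hist1h4k* had 111, 139 and 121 in VEC-positive libraries, against 378, 299 and 212 in VEC-null libraries (-1.22 ± 0.21 SE, adjusted p = 0.0025), and *Hist1h4a* had 122, 146 and 149 in VEC-positive libraries, against 383, 321 and 196 in VEC-null libraries (-1.05 ± 0.23 SE, adjusted p = 0.0091). None of these overlapped between groups. *Hist1h4d* had 93.3, 187 and 139 in VEC-positive libraries, against 171, 148 and 154 in VEC-null libraries (-0.23 ± 0.23 SE, adjusted p = 0.478), and *Hist4h4*, the gene outside the 3 large clusters, had 46.7, 51.6 and 39.5 in VEC-positive libraries, against 38.3, 40.2 and 68.3 in VEC-null libraries (-0.05 ± 0.27 SE, adjusted p = 0.909). By cluster, 39 of 52 tested Hist1 genes and 3 of 8 Hist2 genes were lower, with medians of -1.06 and -0.70, and the tested gene each of Hist3 and Hist4 did not pass.

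Genes that act with the replication-dependent histones moved to different extents. Of all tested genes, 16.4% were lower and 20.9% higher. Of 25 S-phase genes, which replicate DNA or make its precursors, 20 were lower and none higher, with a median of -0.75. The DNA polymerase alpha subunit gene *Pola1* (-1.50, adjusted p = 1.63e-05), the helicase gene *Mcm6* (-1.41, 5.25e-05) and the ribonucleotide reductase gene *Rrm2* (-1.16, 0.000438) were among them, and the counts without 1 library were 15 to 22. Of 18 genes of G1/S and S-phase control, 10 were lower and 3 higher, with a median of -0.56, and 6 were lower without VEC-null library 2 or without VEC-positive library 2. Cyclin A2 (*Ccna2*) was at -1.07 (adjusted p = 3.55e-05), and among the higher genes was the cyclin-dependent kinase inhibitor *Cdkn1a* at 1.64 (adjusted p = 0.000104).

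Of 26 histone chaperones, 10 were lower (38.5%, against 16.4% of all tested genes) and 2 higher (7.69% against 20.9%), with a median of -0.19. The count of higher chaperones was 0 without VEC-null library 2 or VEC-positive library 1 or 2, and 4 without VEC-null library 3. *Nasp*, a carrier of soluble histones H3 and H4, and *Chaf1a*, a subunit of the assembly factor that deposits them on new DNA, were lower (-0.79 and -0.83, adjusted p of 0.00305 and 0.0025). Of 22 genes for the transcription and 3′ processing of histone mRNA, 6 were lower (27.3%) and 1 was higher (4.55%). Their median was -0.17, and 4 were lower without VEC-positive library 2 or 3. *Slbp*, the stem-loop binding protein gene, averaged 605 in VEC-positive and 701 in VEC-null libraries (-0.19 ± 0.15 SE, adjusted p = 0.352). *Npat*, the coactivator of histone gene transcription, averaged 603 in VEC-positive and 605 in VEC-null libraries (SE 0.08, adjusted p = 0.972). With equal totals the counts of lower genes were 25, 13, 19 and 17 for these 4 lists, while 35.3% of all tested genes were then lower.

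Histone variants encoded outside the clusters, most of which are expressed through the cell cycle from polyadenylated mRNA, had calls in both directions. Of 11 tested, 2 were lower (18.2%, against 16.4% of all tested genes), 4 were higher (36.4% against 20.9%) and 5 did not pass, with a median of 0.07. The median turned negative with equal totals (-0.24, or -0.08 without mitochondrial transcripts), with the filter at 50 (-0.08), without VEC-null library 3 (-0.13) and without VEC-positive library 3 (-0.04). The lower genes were then 6, 4, 4, 4 and 1. The linker histone gene *H1f0*, which is associated with arrested and differentiated cells, had 2619, 2534 and 2612 in VEC-positive libraries, against 1585, 1671 and 1497 in VEC-null libraries (0.71 ± 0.07 SE, adjusted p = 0.000157). *H1fx* was at 2.23 (adjusted p = 0.00013) and *H3f3b*, which encodes the replacement histone H3.3, at 0.43 (adjusted p = 0.00486). *Cenpa*, the centromeric H3 variant, had 121, 144 and 128 in VEC-positive libraries, against 383, 323 and 328 in VEC-null libraries (-1.39 ± 0.12 SE, adjusted p = 7.84e-05). Summed over the list, the variants had 11163 to 11969 normalized counts in VEC-positive and 9622 to 10817 in VEC-null libraries.

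**Figure D5:**
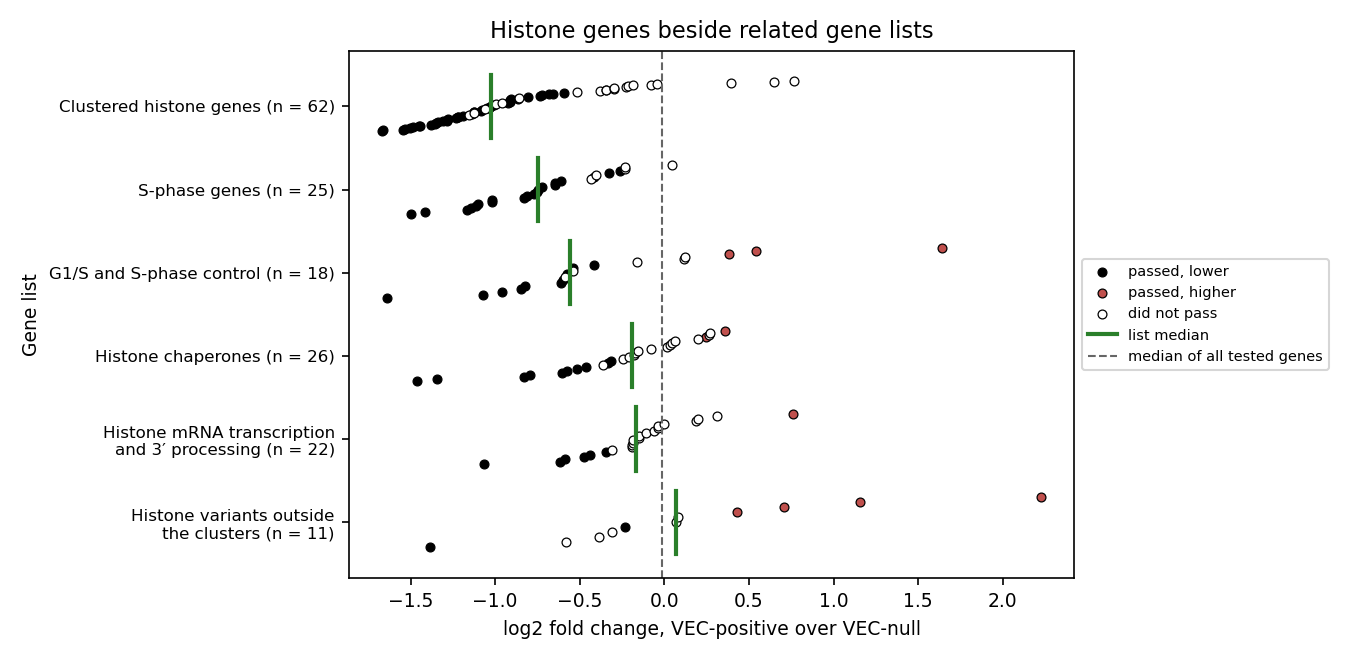
Log2 fold change between VEC-positive and VEC-null libraries (x axis, positive where VEC-positive is higher) for each tested clustered histone gene and each tested gene of 5 related lists (y axis). Black points passed as lower, red points passed as higher and open points did not pass; the green bar is the median of a list and the dashed line that of all tested genes. Medians run from -1.03 for the clustered histone genes to 0.07 for the variants outside the clusters.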

How the data were processed

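Total RNA of VEC-positive and VEC-null ECs (3 libraries each, grouped by their labels) was sequenced. Per the submitters' processing notes, reads were trimmed with Trim Galore and aligned with TopHat2 2.1.1 to mm10, and DESeq2 1.14 was used; neither these notes nor the paper gives the counting program, the annotation or the rule for reads that fit several genes. The signal values deposited by the authors for 24080 genes are counts per gene after division by a size factor of the library: all values were whole multiples of 1 step per library within 0.01 reads, and reads were recovered from these steps. No column was left unmapped (0).

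GENCODE M21 gave symbols and coordinates for 23908 genes, promoters from RefSeq (GRCm38.p6). Genes that reached a value of 10 in 3 or more libraries were tested two-sided on log2(value + 1) with limma 3.58.1 and its mean-variance trend in R 4.3.3. P-values were adjusted by Benjamini-Hochberg across all of these genes, and 0.05 was the threshold. Fold changes are on that scale and understate those of low genes. The members and the gene lists were chosen with earlier results of these data known, so no test was run over the members as a set. Named were the members with the highest means per class, the largest changes, those with no reads in 1 group and those known for polyadenylated transcripts, together with members singled out after their values were seen; of each list, genes with the largest changes and genes specific to histone mRNA. Shared sequence was counted as the percentage of a gene's 50-base stretches that occur in transcripts of another gene. Counting intervals and floors cover counting error only. Alternatives were pseudocounts of 0.5 and 5, no filter and a filter of 50, 3 other scalings, 2 other models of the spread, leaving out each library, the replicate number as a block, and count tests of the recovered reads in DESeq2 1.42.0 and edgeR 4.0.16. Replicate numbers did not pair the libraries. Figures were drawn with matplotlib 3.10.9.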

Additional observations from a re-analysis of the deposited data

How the results depend on the processing

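The 42 lower members were 26 to 43 when 1 library was left out, and 0 to 1 members were then higher. Of all tested genes, 11.3% to 23.9% were lower in these fits. Of the 42, 25 were lower under every alternative that fitted them, namely 3 H1, 3 H2A, 8 H2B, 6 H3 and 5 H4 genes. With the replicate number as a block, 40 members were lower (37 of the 42 and 3 others). The numbers share no pairing that the data show: deviations of same-numbered libraries correlated at 0.08, -0.33 and -0.30. DESeq2 kept 40 of the 42, edgeR all 42 and limma without the trend 33, in which 4 H2A genes were lower against 9. Scaling to equal totals moved the median of tested members from -1.03 to -1.33, that of H1 to -1.23, H2B to -1.43, H3 to -1.39 and H4 to -1.04, while the median of all genes moved to -0.32. The stricter filter, which dropped 7 members, gave -1.02 for H4. Relative to the median of all genes, the member median stayed between -0.86 and -1.14 under all alternatives. No median of a class changed sign. Depth limits the low members: *Hist2h2be* rests on 12 to 25 reads a library, *Hist3h2a* on 10 to 47, and reads of near-identical copies cannot be assigned with certainty.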
